A study of Citrus sinensis with 2 samples.

Results

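The known miRNA names of the moss and green alga series were examined in leaves of sweet orange (C. sinensis, cultivar Xuegan). They were all rows of the count table whose number lies between those given to miRNAs of the moss Physcomitrium patens (miR1023 to miR1079) or of the unicellular green alga Chlamydomonas reinhardtii (miR905 to miR919 and miR1142 to miR1173). The names miR1077 and miR1171 were left out. This gave 52 of the 1215 names, 27 of the moss and 25 of the alga series, out of 56 and 46 numbers in these ranges. The Mg-deficient leaves came from seedlings in river sand that received 0 mM MgSO4, and the Mg-sufficient leaves from seedlings that received 1 mM MgSO4, both for 16 weeks, with sulfate kept equal by Na2SO4. Small RNA was sequenced from 1 library per treatment, each from mixed leaves of 5 plants, so that within the sequencing data no difference has a replicate check and every comparison is one between 2 libraries. Replicated qRT-PCR, which the study ran for a selection of miRNAs that included miR1160, was not used here. The Mg-deficient library held 20328011 clean reads and the Mg-sufficient library 22218850. By the deposited assignment, the counts summed over known miRNA names came to 14.8% of the clean reads of the Mg-deficient library. For the Mg-sufficient library they came to 22.9%. One of the paper's tables places the libraries under the opposite treatments, as described with the processing. That table gives smaller miRNA shares than these sums for both libraries, with the larger gap for the one with 20328011 clean reads. The same library also held the larger share of rRNA there. Levels per clean read thus depend on the other RNA sequenced.

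A miRNA is a short RNA cut by a Dicer-like enzyme from one arm of a hairpin transcript. It guides an Argonaute protein to transcripts with a matching site, and plant miRNAs mostly act through cleavage of transcripts that they pair with along nearly their whole length. Names in the public registry are numbered in the order of submission, and the same number is given to similar sequences in other species. A core of families is shared by mosses and flowering plants, whereas most numbers of the moss and alga series were registered from these organisms alone, and the miRNAs known in Chlamydomonas have little in common with those of land plants. A count under such a name therefore tells that citrus reads matched its sequence with mismatches allowed, not that the gene is present in citrus. In the table of citrus genes used here (RefSeq, assembly DVS_A1.0, 129 miRNA genes), 0 of the 27 moss numbers and 0 of the 25 alga numbers had a miRNA gene of that number, against 25 of 31 conserved plant families and 40 of all 1215 names.

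The paper's list of known miRNAs gave a mature sequence for 27 of the 52 names, 11 of the moss and 16 of the alga series. The sequences of those that reached 10 reads per 1000000 clean reads (RPM) in at least 1 library are shown because the results turn on them, with the seed (bases 2 to 8 from the 5′ end) in capitals. The following were higher in the Mg-deficient library, first miR1026 of the moss series and then 5 of the alga series.
miR1026: uGUGAAAUgacuugagaggcc
miR1168: uCGUGGACaaggccaaggcgc
miR1160: uGAAGGAAgcaguaguggau
miR917: uUUGGACGguuauuuucgaa
miR1172: uAGACGGAgacauagugaa
miR1162: cGGCUUAAuuugacucaacacg

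The following were lower in the Mg-deficient library, miR1023 from the moss series and the others from the alga series.
miR1023: aGCGAGAUugggaaagugcau
miR1149: cGGAUCAAuacugacccccagc
miR1165: uACUGUAGcaagcggccaucc

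The last set did not pass the threshold of change. Its members are miR1048, miR1033 and miR1078 of the moss series and miR1159 of the alga series.
miR1048: uGGAAGAUaguguagagac
miR1033: aUAGACGGgucgaugauguggcau
miR1078: cUUGAUUGauuguuggau
miR1159: aCAAUGACauagaugacggau

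The 27 listed sequences had 27 different seeds, so that no seed was shared within or between the series. Uracil, the 5′ base that the plant Argonaute AGO1 prefers, was the first base of 8 of the 11 moss and 10 of the 16 alga sequences, or 72.7% and 62.5%, beside 49.7% of the 690 sequences listed for all names. The alga sequences were mostly of the usual miRNA length, with 12 of 16 (75.0%) at 20 to 22 nt. Among the moss sequences 3 of 11 (27.3%) were in this range, 3 had 18 nt and 3 had 24 nt. Of all 690 listed sequences 345 were 20 to 22 nt long.

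Of the 27 moss names, 20 had a count in the Mg-deficient and 19 in the Mg-sufficient library, and of the 25 alga names 21 had one in the Mg-deficient and 15 in the Mg-sufficient library. The share with counts in the Mg-deficient library only was 29.6% (8 names) for the moss and 40.0% (10 names) for the alga series, beside 3.23% of the conserved plant families and 16.3% of all names. Counts in the Mg-sufficient library only were found for 25.9% of the moss names (7) and 16.0% of the alga names (4), beside 21.2% of all names. All 8 moss names counted in the Mg-deficient library only had at most 6 counts, whereas 6 of the 10 alga names of this kind had at least 1 RPM. A count of 0 allows a level of up to 0.148 RPM (3 counts) in the Mg-deficient and 0.135 RPM in the Mg-sufficient library, so that names with few counts may have been missed by chance of sampling.

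**Figure D1:**
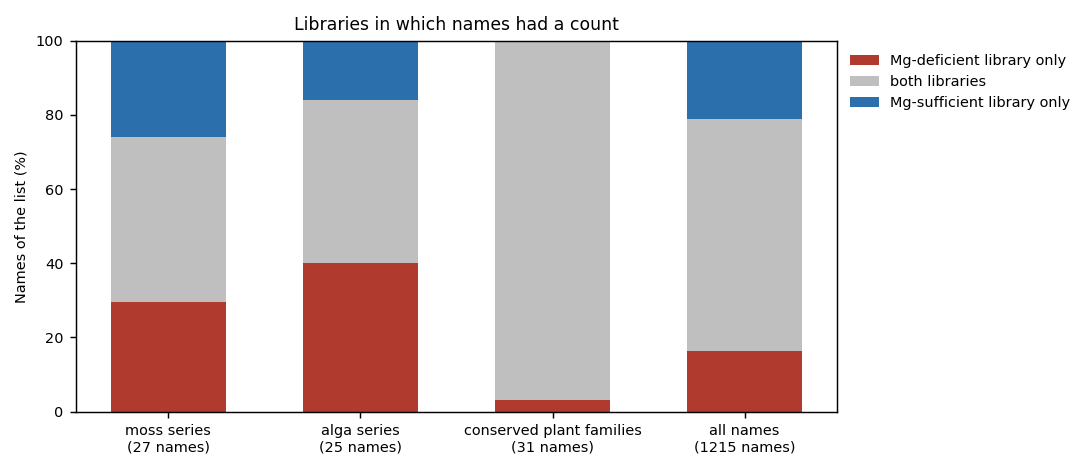
Share of the names of each list (vertical axis, %) with counts in the Mg-deficient library only, in both libraries, or in the Mg-sufficient library only. Both libraries held counts of 44.4% of the moss and 44.0% of the alga names, against 96.8% of the conserved plant families and 62.6% of all names.

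Most members were of low abundance. The median level of the moss names was 0.0984 RPM in the Mg-deficient and 0.270 RPM in the Mg-sufficient library, and that of the alga names was 1.67 RPM in the Mg-deficient and 0.405 RPM in the Mg-sufficient library. For all names the median was 0.492 RPM in the Mg-deficient and 0.900 RPM in the Mg-sufficient library. Summed over its names, the moss series reached 179 RPM in the Mg-deficient and 746 RPM in the Mg-sufficient library, which is 0.121% of the known miRNA counts of the Mg-deficient and 0.325% of those of the Mg-sufficient library. The alga series reached 616 RPM in the Mg-deficient and 956 RPM in the Mg-sufficient library, or 0.417% of the known miRNA counts in each. The sums of the Mg-sufficient library rest on a single name in each series. MiR1074 held 82.3% of the moss sum and miR1151 held 74.5% of the alga sum there. Without these names, chosen after their values were seen, the moss sum was 179 RPM in the Mg-deficient against 132 RPM in the Mg-sufficient library. The alga sum was then 616 RPM in the Mg-deficient against 244 RPM in the Mg-sufficient library. Leaving out only the top names of the Mg-sufficient library by itself moves the sums toward the Mg-deficient side. The top names of the Mg-deficient library were kept, where miR1026 held 51.4% of the moss and miR911 46.4% of the alga sum. No direction is therefore read from the reduced sums.

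A name was tested when it had at least 10 RPM in at least 1 library, and was called when its log2 ratio (Mg-deficient over Mg-sufficient) lay more than 1.5 from 0 and the one-sided p of Audic and Claverie's formula was less than 0.01. Such a p sets the reads of 2 libraries against each other, not the treatments. In the moss series 6 of 27 names passed the filter, 1 of them was called higher and 2 were called lower. In the alga series 10 of 25 passed, of which 6 were called higher and 3 lower. Of all 324 names that passed, 28.1% were called higher and 25.6% lower, 53.7% in all. The 2 of 6 lower in the moss series and the 3 of 10 lower in the alga series are close to that background, and with so few names the 6 of 10 higher in the alga series is given as a count only. The 25 conserved families that passed had 2 called higher and 4 called lower. Over names with a mean of at least 1 RPM, with a count of 0 set to 3 counts, the median log2 ratio was -0.96 for 12 moss names and 0.97 for 17 alga names, beside -0.42 for 631 of all names. The alga median is the value of miR916, which stands alone between names far above and names near 0. It was 4.31 when libraries were scaled to their known miRNA counts, where partly different names met the minimum of 1 RPM.

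**Figure D2:**
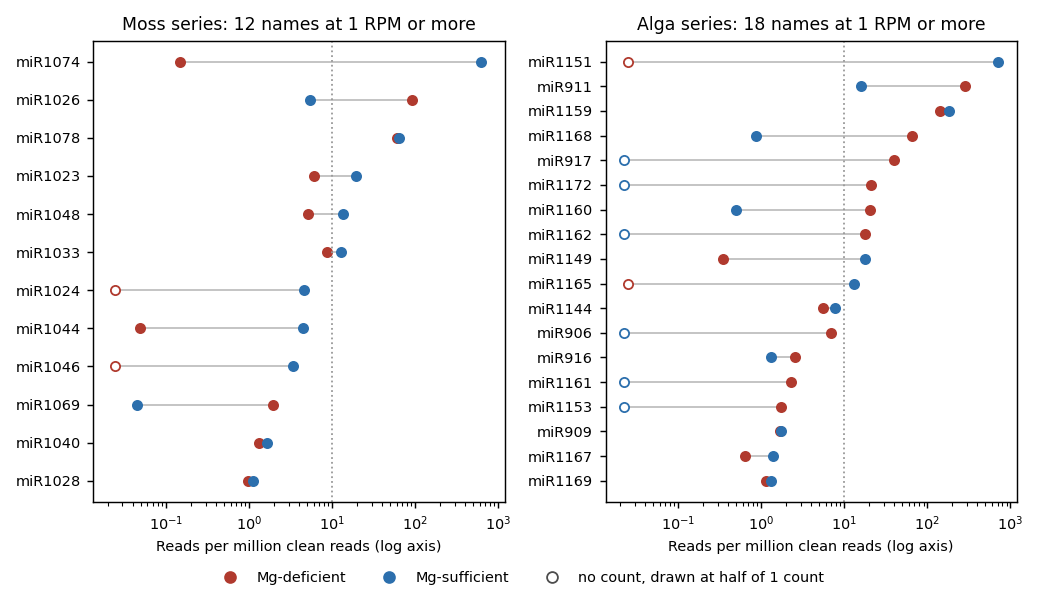
Level of each name that reached 1 RPM in either library (horizontal log axis, RPM), in the moss series (left) and the alga series (right), with 1 point per library joined by a grey line and the 10 RPM filter dotted. Open points are counts of 0, drawn at 0.5 count. The alga panel has 6 open points on the Mg-sufficient side at names higher in the Mg-deficient library, and miR1151 and miR1165 have them on the Mg-deficient side.

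Of the moss series, miR1026 was the only name called higher. In Physcomitrium it is known to target a basic helix-loop-helix transcription factor. It had 1867 counts, or 91.8 RPM (Wilson 95% limits, 87.8 and 96.1), in the Mg-deficient library, against 121 counts, or 5.45 RPM (4.56 to 6.51), in the Mg-sufficient library. It was 16.9-fold higher (95% interval, 14.0 to 20.4, Clopper-Pearson), with a log2 ratio of 4.08. All intervals cover counting error only, and since PCR copies molecules, reads are not independent of each other. The sequence of miR1026 shares its first 13 bases, UGUGAAAUGACUU, with the listed sequence of miR7984, which had 380 counts in the Mg-deficient and 429 in the Mg-sufficient library. These 2 names thus had different ratios.

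MiR1074 was the most abundant moss name in the Mg-sufficient library and all but missing from the other. It had 3 counts in the Mg-deficient library, against 13632 counts (614 RPM) in the Mg-sufficient library, where it ranked 27 of all names. The log2 ratio was -12.02, and the 3 counts leave an interval from -14.30 to -10.47. Among the 324 names that passed the filter only 3 had a lower ratio, when a count of 0 was set to 3 counts. MiR1023 had 125 counts (6.15 RPM) in the Mg-deficient and 434 counts (19.5 RPM) in the Mg-sufficient library. It was 3.18-fold lower (2.60 to 3.91). Its log2 ratio of -1.67 was near the threshold, and it no longer passed under 3 other scalings, with -1.33 by TMM (edgeR), -1.30 by the size factors of DESeq2 and -1.03 by scaling to the known miRNA counts.

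The other moss names that passed the filter were not called. MiR1048 had 104 counts (5.12 RPM) in the Mg-deficient and 298 counts (13.4 RPM) in the Mg-sufficient library, a log2 ratio of -1.39 (95% interval, -1.73 to -1.06), just short of the threshold. With the clean-read totals exchanged between the libraries it was -1.65, and the moss names called lower were then 3, whereas the other scalings of the libraries gave -0.76 to -1.05. MiR1033 had 178 counts (8.76 RPM) in the Mg-deficient and 282 counts (12.7 RPM) in the Mg-sufficient library, with a log2 ratio of -0.54 (-0.81 to -0.26) that was 0.099 when scaled to the known miRNA counts. MiR1078, the only moss name above 10 RPM in both libraries, had 1236 counts (60.8 RPM) in the Mg-deficient and 1431 counts (64.4 RPM) in the Mg-sufficient library. Its log2 ratio was -0.08, the interval of -0.19 to 0.03 includes 0, and the sign turned with 3 of the other scalings of the libraries.

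Of the alga series, miR911 was the most abundant name in the Mg-deficient library. It had 5809 counts, or 286 RPM (279 to 293), there and ranked 42 of all names, against 356 counts, or 16.0 RPM (14.4 to 17.8), in the Mg-sufficient library. It was 17.8-fold higher (16.0 to 19.9), a ratio close to that of miR1026. MiR1168, for which the predicted citrus target is a TCP family transcription factor, had 1338 counts (65.8 RPM) in the Mg-deficient against 19 counts (0.855 RPM) in the Mg-sufficient library. It was 77.0-fold higher (49.1 to 128). The predicted targets of miR1160 include a mitochondrial substrate carrier family protein and phosphate 1 (PHO1). MiR1160 had 413 counts (20.3 RPM) in the Mg-deficient and 11 counts (0.495 RPM) in the Mg-sufficient library. Its log2 ratio was 5.36, with an interval from 4.50 to 6.37. Among these names miR911 alone had more than 10 RPM in both libraries.

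For the other alga names called higher the Mg-sufficient library held no count, and only a bound against 3 counts can be given. MiR917 reached 814 counts (40.0 RPM) with Mg-deficiency, at least 297-fold higher. MiR1172, with an alpha/beta-hydrolase as its predicted target, had 432 counts (21.3 RPM) there, with a log2 ratio of at least 7.30. MiR1162 had 359 counts (17.7 RPM) in the same library and was at least 131-fold higher. These bounds leave out the counting error of the Mg-deficient counts.

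The alga names called lower differed widely in level. MiR1151 had no count in the Mg-deficient library and 15822 counts, or 712 RPM (701 to 723), in the Mg-sufficient library, where it ranked 24 of all names. It was at least 4825-fold lower. MiR1149, with a radical SAM domain protein of the GNAT family as its predicted target, had 7 counts (0.344 RPM) in the Mg-deficient against 392 counts (17.6 RPM) in the Mg-sufficient library and was 51.2-fold lower (24.6 to 128). MiR1165 had no count in the Mg-deficient and 288 counts (13.0 RPM) in the Mg-sufficient library. Its decrease was at least 87.8-fold. MiR1159 was the only alga name that passed the filter and was not called. It had 2857 counts (141 RPM) in the Mg-deficient and 4032 counts (181 RPM) in the Mg-sufficient library, with a log2 ratio of -0.37 (-0.44 to -0.30) that was 0.27 when scaled to the known miRNA counts.

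**Figure D3:**
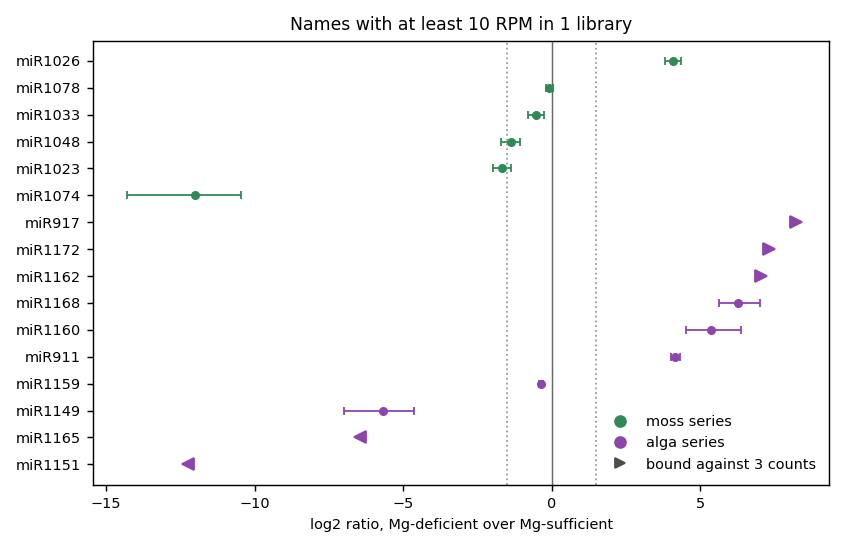
Log2 ratio, Mg-deficient over Mg-sufficient (horizontal axis), for the 6 moss and 10 alga names that passed the 10 RPM filter. Bars are 95% intervals of counting error, triangles are bounds against 3 counts, and dotted lines mark the threshold of 1.5 in both directions. The moss names other than miR1074 and miR1026 lie between -1.67 and -0.08, whereas all alga names but miR1159 lie at 4.16 or above or at -5.68 or below.

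Between 1 and 10 RPM there were 6 moss and 8 alga names. Of the moss names, 3 had at most 1 count in the Mg-deficient library, namely miR1024, miR1046 and miR1044, with 0, 0 and 1 count there, against 101, 75 and 98 counts in the Mg-sufficient library. MiR1069 went the other way, with 40 counts in the Mg-deficient and 1 count in the Mg-sufficient library, a log2 ratio of 5.45 whose interval runs from 2.89 to 10.79. MiR1040 and miR1028 had 27 and 20 counts in the Mg-deficient library, against 37 and 25 in the Mg-sufficient library, and the intervals of their log2 ratios include 0.

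Of the alga names in this range, 3 were counted in the Mg-deficient library only. MiR906 had 139 counts there and was at least 50.6-fold higher, miR1161 had 47 counts and was at least 17.1-fold higher, and miR1153 had 35 counts and was at least 12.8-fold higher. MiR916 had 52 counts in the Mg-deficient against 29 in the Mg-sufficient library, a log2 ratio of 0.97 (0.29 to 1.68). MiR1144 had 113 counts in the Mg-deficient and 173 in the Mg-sufficient library, a log2 ratio of -0.49 (-0.84 to -0.14). MiR1167 had 13 counts in the Mg-deficient and 31 in the Mg-sufficient library, a log2 ratio of -1.13 (-2.18 to -0.15). MiR909 and miR1169 had 34 and 23 counts in the Mg-deficient library, against 38 and 29 in the Mg-sufficient library, and the intervals of their log2 ratios include 0. When no abundance filter was applied, 2 moss names were called higher and 5 lower, and 9 alga names were called higher and 3 lower, beside 18.6% higher and 25.3% lower of all 1215 names.

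The remaining 15 moss and 7 alga names were below 1 RPM in both libraries and none had a listed sequence. Of the moss names 8 had counts in the Mg-deficient library only, 5 in the Mg-sufficient library only and 2 in both, with no more than 6 counts in the Mg-deficient and 14 in the Mg-sufficient library. Of the alga names 4 were counted in the Mg-deficient library only, 2 in the Mg-sufficient library only and 1 in both. MiR1142 was the highest of them, with 18 counts in the Mg-deficient and 9 in the Mg-sufficient library. No difference between the libraries is read from such counts.

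**Figure D4:**
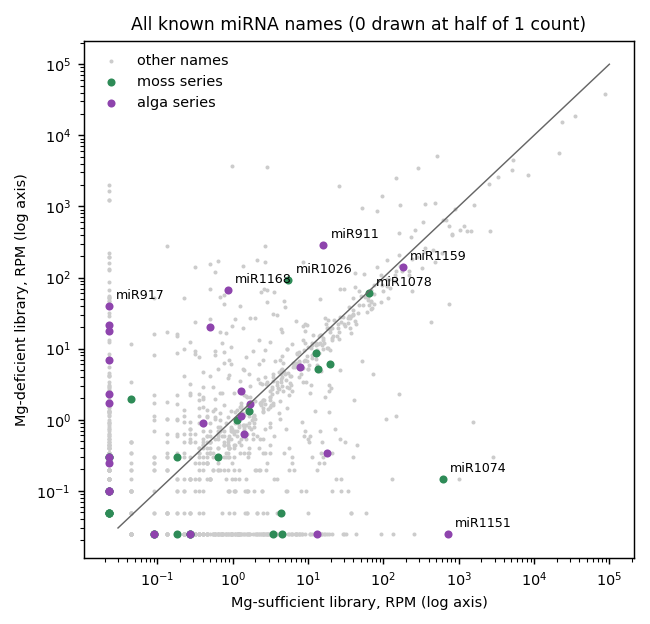
Level of all 1215 known miRNA names in the Mg-sufficient (horizontal log axis, RPM) and the Mg-deficient library (vertical log axis, RPM), 1 point per name, with the moss series in green and the alga series in purple. A count of 0 is drawn at 0.5 count, and the line marks equal levels. MiR1151 and miR1074 lie at the lower right, with 712 and 614 RPM in the Mg-sufficient library, and miR911 at 286 RPM is the highest of both series in the Mg-deficient library.

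Names with near-identical sequences can share reads, and how such reads were counted is not given in the sources used here. Of the 27 members with a listed sequence, 3 overlapped a name outside the series over 17 nt or more with no more than 2 mismatches, and none of the 3 was called. These neighbours are shown for comparison with the sequences above, again with the seed in capitals, with miR8148 beside miR1033, miR6443 beside miR1159, and miR6464 and miR5632 beside miR1078.
miR8148: uAGACGGAucgaugacguggcau
miR6443: aAUGACAUagaugauggau
miR6464: uUGAUUGAuuguuggauuuu
miR5632: uUUAUUGAuaguuggauaagu

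The overlap of miR1033 and miR8148 was 23 nt with 2 mismatches. MiR8148 had 1369 counts in the Mg-deficient and 1508 in the Mg-sufficient library, and the log2 ratio of both names together was -0.08 (-0.18 to 0.02), an interval that includes 0. MiR8148 also has the seed of miR1172, AGACGGA, the only seed of a member found in another listed name. MiR1159 and miR6443 overlapped by 19 nt with 1 mismatch, but miR6443 had 11 counts in the Mg-deficient against 222 in the Mg-sufficient library, a log2 ratio of -4.21 (-5.23 to -3.34), where that of miR1159 was -0.37. MiR1078 shared 17 nt without a mismatch with miR6464, which had 7505 counts in the Mg-deficient and 5136 in the Mg-sufficient library. Summed over miR1078, miR6464 and miR5632, the log2 ratio was 0.52 (0.48 to 0.57), so that the sign of miR1078 depended on whether the names were counted singly. None of the called members with a listed sequence had such a neighbour. For miR1074, miR1151 and miR911 no sequence could be read from the paper's list of known miRNAs, and shared reads were not tested for them. Among names with a listed sequence that passed the filter, 73 were called higher and 64 lower, against 91 and 83 of all names that passed. The counts over listed sequences equal those that the paper reports for changed known miRNAs. The called names without a listed sequence thus appear to lie outside the changed known miRNAs that the paper reports. Among them are the most abundant of the called members.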

How the data were processed

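Per the paper's methods, the authors cleaned the reads of adaptors and low-quality tags, kept those that SOAP mapped perfectly to the C. sinensis genome (JGI version 1.1), took out rRNA, tRNA, snRNA and snoRNA, and compared the rest with plant miRNAs (miRBase 21, at most 2 mismatches). The deposited count is the number of reads per name and library. Their table of RPM values, per 1000000 clean reads by the authors (called TPM in the paper), was deposited too, and the recomputed values differed by at most 5e-05 RPM. The comparison table gave the clean-read totals only. Its fold changes and p-values, the authors' own comparison, were not used. In one of the paper's tables these totals, and the read classes listed with them, stand under the opposite treatments. Normalized values in its supplementary tables follow the deposited assignment, which was used here. If the libraries themselves were exchanged, every direction given here would be reversed. The alternative with clean-read totals exchanged changes the divisors only, so it does not cover that case. The extraction text of the labels mentions roots once, and all other labels give leaves.

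Counts were divided by the clean-read totals. For calls a count of 0 was set to 0.01 RPM, and for bounds and medians to 3 counts. Wilson and exact Clopper-Pearson 95% intervals were used. Every member with at least 1 RPM in 1 library is named, as are near-identical names, and the others are given by counts and ranges. MiR1142, miR7984, miR3522 and miR6025 were chosen after their values were seen. Sequences came from the paper's list of known miRNAs. The predicted targets are those of the paper. The members, lists and tests were chosen with earlier results of these data known. Calls and intervals were run on simulated counts that had counting error alone and planted changes well beyond the threshold. That check cannot tell how they behave with biological or PCR variation, or for changes near the threshold. Python 3.11.15, numpy 2.4.6, scipy 1.17.1, pandas 2.3.3, matplotlib 3.10.9, R 4.3.3, edgeR 4.0.16 and DESeq2 1.42.0 were used, the last 2 for library sizes and for edgeR's exact test with an assumed coefficient of variation of 0.4.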

Additional observations from a re-analysis of the deposited data

How the results depend on the processing

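No paired analysis was possible because each treatment has 1 library. The other library sizes shifted every log2 ratio by 0.34 (edgeR's TMM), 0.37 (DESeq2's size factors), 0.63 (total count of known miRNAs) or -0.26 (clean-read totals exchanged). In this order the moss median became -0.62, -0.60, -0.33 and -1.65, and the alga median 2.87, 2.90, 4.31 and 0.71. Some of these medians moved by more than the shift because the minimum of 1 RPM was applied after scaling and changed the names included. The alga median was over 16 names with TMM and with DESeq2's size factors, and the moss median over 11 names with exchanged totals. Over all names of each series, without a minimum level, the medians were -0.54 and 0.87. The alga calls stayed at 9 under each library size and each test tried. The moss calls were between 2 and 4 under these. Without an abundance filter 7 moss names were called. With 10 RPM required in both libraries, 0 moss names and 1 alga name were called, and with 50 RPM in 1 library 3 alga names were called. By the total count of known miRNAs, miR1033, miR1078 and miR1159 turned to log2 ratios of 0.099, 0.55 and 0.27. MiR1078 was also positive with TMM (0.26), with DESeq2's size factors (0.28) and summed with its near-identical names (0.52). Of the 83 values computed for 16 names under alternatives, 73 kept their direction and their side of the threshold. When names without a listed sequence were left out, an alternative chosen after seeing the data, 2 moss and 7 alga names were called, against 25.4% higher and 22.3% lower of all names with a sequence. Counts of 3 or fewer in a library limit all ratios that rest on them, and biological variation could not be estimated.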

Other observations

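The listed sequence of miR916 holds the letters GGUUCGA, which also occur in the T arm of many tRNAs. On the strand as listed, 2 of the 690 sequences (0.29%) hold them, those of miR916 and miR2938. MiR2938 had 433 counts in the Mg-deficient and 216 in the Mg-sufficient library, and both names thus had more counts in the Mg-deficient library. In the paper's table of read classes, the library deposited as Mg-deficient held the smaller share of tRNA. No comparison with tRNA sequences was made. A run of 10 bases, AUGACUUGAG, is shared by miR1153 of the alga series and miR1026 of the moss series, and 9 of these bases also stand in miR1161 of the alga series. All 3 names had higher levels in the Mg-deficient library. The run was noticed after the values were seen, and whether such reads have a common source was not tested.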
